A study of Mus musculus with 34 samples.

Results

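Matrix proteases let a macrophage cut through the tissue around it, and 8 genes of this system are described here by the transcription factors bound at them. They are the matrix metalloproteinases Mmp9, Mmp12, Mmp13 and Mmp14, the metalloproteinase inhibitor Timp1, the urokinase Plau with its receptor Plaur, and Spp1, which encodes the matrix protein osteopontin. All peaks whose midpoint lay within the gene body or 20 kb on either side were taken, with gene bounds from GENCODE on mm10. This gave 842 of the 596383 peaks in 30 ChIP-seq peak lists, and joining peaks that overlapped by at least 1 bp gave 110 of 93024 loci. The 8 genes are among 21938 protein-coding genes, and the rule that takes their peaks uses gene positions and no binding value. The genes themselves were chosen with earlier results of these data known.

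The cells were thioglycollate elicited macrophages (TGEMs), which are recruited to the mouse peritoneum by an irritant and then cultured. ChIP-seq, in which an antibody recovers the DNA bound by a protein, was done in TGEMs. The cells were treated with vehicle (Veh) or with Kdo2 lipid A (KLA), an agonist of the receptor TLR4, at 100 ng/mL for 1 h. C57BL/6 cells (C57, written C57Bl/6EiJ in the labels) had lists for the AP-1 monomers ATF3, Jun, JunD, Fos, FosL2 and JunB and for PU.1 and CEBPα with both treatments, and for PPARγ in Veh. BALB cells (Balb/cJ) had lists for 5 of the monomers, without FosL2, with both treatments. PPARgKO cells, PPARγ knockout cells whose sample titles give the strain C57Bl6, had lists for ATF3, Jun and JunD in Veh. The C57 and BALB mice were male and 8 weeks old. The age of the PPARgKO mice and how the gene was deleted are not given in the sources used here, and no PPARγ list of these cells was analysed, so the deletion itself could not be checked. The tissue label could not be checked against marker genes, since no expression was measured in these files.

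AP-1 is a pair of proteins, each from the Jun, Fos or ATF families, that binds the TRE sequence and related sites. The TRE takes its name from the phorbol ester TPA, and genes of collagenases and urokinase are textbook AP-1 targets. PU.1 and CEBPα mark out the enhancers of macrophages, and PPARγ is a nuclear receptor that binds DNA with RXR. Urokinase bound to its receptor turns plasminogen into plasmin, which in turn activates several metalloproteinases.

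Each condition has 1 list, which the authors made from the replicate experiments together, so the values below have no replicate error and no test between conditions was possible. A peak carries a count, which was treated here as a count of reads not scaled to library size. It is therefore given with its percent rank, the position by count as a percentage of its list, so that 1% is among the strongest peaks and 100% is the weakest. An interval of the rank comes from the exact 95% Poisson interval of the count and covers counting error only. It rests on that treatment of the counts, since how the replicate counts were combined is not given. Over the 28 lists with at least 100 peaks, a list held 463 to 41573 peaks, its counts summed to between 9196 and 13809143, and its median count was 18 to 277. Fos of BALB had no peak at all in Veh, and JunB of BALB had 9. A gene without a peak in a list is one at which no region passed the authors' threshold at that depth.

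For 7 of the genes, the central 200 bp of the locus in the most lists are shown first (GRCm38, plus strand). The locus of Spp1 in the most lists lies over its start site and is shown with the promoters. Capitals mark exact matches, on either strand, to the TRE (TGACTCA), the CRE (TGACGTCA), the PU.1 site (AGGAAGT), the CEBP site (TTGCNNAA), the PPAR core site (AGGTCA, the repeat unit of nuclear receptor elements), the NF-kB site (GGNNTTTCC) or the Runx site (TGTGGTT). The Plau element lies at chr14:20834207-20834406, the Plaur elements at chr7:24459896-24460095 and chr7:24442445-24442644, and the Mmp12 element at chr9:7337242-7337441. The Mmp9 element is at chr2:164942902-164943101, the Mmp13 element at chr9:7270156-7270355, the Mmp14 element at chr14:54426311-54426510 and the Timp1 element at chrX:20868230-20868429. Both Plaur elements are shown because they tied in the number of lists.
Plau, -2.4 kb: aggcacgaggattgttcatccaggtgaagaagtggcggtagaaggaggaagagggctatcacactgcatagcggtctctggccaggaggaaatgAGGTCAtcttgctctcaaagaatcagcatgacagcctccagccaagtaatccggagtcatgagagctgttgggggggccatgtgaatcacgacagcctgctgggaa
Plaur, -2.5 kb: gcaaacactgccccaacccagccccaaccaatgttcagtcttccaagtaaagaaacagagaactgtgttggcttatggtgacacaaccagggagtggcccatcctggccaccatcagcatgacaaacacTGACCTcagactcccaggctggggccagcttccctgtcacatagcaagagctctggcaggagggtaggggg
Plaur, -19.9 kb: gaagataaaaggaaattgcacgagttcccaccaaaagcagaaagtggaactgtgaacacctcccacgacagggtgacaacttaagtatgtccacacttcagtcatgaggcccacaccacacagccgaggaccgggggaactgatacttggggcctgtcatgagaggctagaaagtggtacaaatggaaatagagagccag
Mmp12, -7.0 kb: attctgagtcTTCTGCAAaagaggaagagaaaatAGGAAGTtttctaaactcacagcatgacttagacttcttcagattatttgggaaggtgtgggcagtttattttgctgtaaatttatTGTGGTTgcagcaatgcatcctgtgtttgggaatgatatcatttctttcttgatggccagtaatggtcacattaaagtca
Mmp9, 2.2 kb: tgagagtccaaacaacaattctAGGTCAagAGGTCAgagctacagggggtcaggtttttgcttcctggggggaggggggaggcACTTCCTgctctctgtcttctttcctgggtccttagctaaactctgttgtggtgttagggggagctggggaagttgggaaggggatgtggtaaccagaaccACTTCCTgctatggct
Mmp13, -2.3 kb: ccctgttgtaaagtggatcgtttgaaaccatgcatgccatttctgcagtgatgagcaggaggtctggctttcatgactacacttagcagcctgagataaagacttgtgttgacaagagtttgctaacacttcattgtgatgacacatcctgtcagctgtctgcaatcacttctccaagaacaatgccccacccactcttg
Mmp14, -5.2 kb: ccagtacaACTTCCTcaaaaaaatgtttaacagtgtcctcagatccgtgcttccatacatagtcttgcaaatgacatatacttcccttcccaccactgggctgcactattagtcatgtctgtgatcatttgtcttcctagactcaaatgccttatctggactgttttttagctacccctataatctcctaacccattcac
Timp1, -1.8 kb: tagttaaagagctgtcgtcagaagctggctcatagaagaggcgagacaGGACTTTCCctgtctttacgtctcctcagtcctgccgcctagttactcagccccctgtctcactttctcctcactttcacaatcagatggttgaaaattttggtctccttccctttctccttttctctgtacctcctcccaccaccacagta

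Where a RefSeq promoter of a member (GRCm38.p6) overlapped a peak, the 250 bases before its start site are shown, with capitals as above. They are 6 promoters of Mmp12 (chr9:7344147-7344396 and, for a second start site, chr9:7347124-7347373), Mmp13 (chr9:7272264-7272513), Timp1 (chrX:20869916-20870165), Plaur (chr7:24462233-24462482) and Spp1 (chr5:104434861-104435110). The table used held no promoter of Mmp9 or Plau, and 6 of the 8 members were matched in it.
Mmp12, first start site: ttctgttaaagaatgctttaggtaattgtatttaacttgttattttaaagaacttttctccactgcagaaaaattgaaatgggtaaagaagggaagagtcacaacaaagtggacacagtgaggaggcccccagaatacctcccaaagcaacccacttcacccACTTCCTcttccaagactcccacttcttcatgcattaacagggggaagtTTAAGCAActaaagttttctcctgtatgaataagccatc
Mmp12, second start site: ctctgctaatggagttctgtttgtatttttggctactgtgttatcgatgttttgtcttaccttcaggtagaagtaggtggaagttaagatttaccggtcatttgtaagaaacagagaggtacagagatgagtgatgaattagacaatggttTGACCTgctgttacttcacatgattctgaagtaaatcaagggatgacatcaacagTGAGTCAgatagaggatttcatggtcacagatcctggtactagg
Mmp13 promoter: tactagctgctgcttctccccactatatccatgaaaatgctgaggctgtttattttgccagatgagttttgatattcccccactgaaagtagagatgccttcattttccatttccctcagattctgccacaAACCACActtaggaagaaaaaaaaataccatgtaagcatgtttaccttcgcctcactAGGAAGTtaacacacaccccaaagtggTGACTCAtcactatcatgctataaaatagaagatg
Timp1 promoter: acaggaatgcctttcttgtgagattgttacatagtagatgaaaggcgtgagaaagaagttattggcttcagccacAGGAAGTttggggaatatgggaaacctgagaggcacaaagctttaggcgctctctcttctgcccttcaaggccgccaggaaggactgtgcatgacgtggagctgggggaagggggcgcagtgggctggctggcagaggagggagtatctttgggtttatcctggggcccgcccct
Plaur promoter: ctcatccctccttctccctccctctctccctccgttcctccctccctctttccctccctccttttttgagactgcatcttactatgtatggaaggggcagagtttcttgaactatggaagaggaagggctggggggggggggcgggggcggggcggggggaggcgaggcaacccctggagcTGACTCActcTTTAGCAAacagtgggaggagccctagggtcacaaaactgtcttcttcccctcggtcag
Spp1 promoter: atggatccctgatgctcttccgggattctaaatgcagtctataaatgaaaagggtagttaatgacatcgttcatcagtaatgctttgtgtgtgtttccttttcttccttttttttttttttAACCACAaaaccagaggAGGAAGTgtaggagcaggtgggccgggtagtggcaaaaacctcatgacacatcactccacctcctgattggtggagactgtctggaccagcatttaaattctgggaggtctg

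An exact TRE stood in the promoters of Mmp13 and Plaur and in that of the second Mmp12 start site, and was held by 5.2% of 32851 promoters taken from 250 bases before to 50 after the start site. The printed promoters were kept because they overlapped a peak, whereas the 5.2% covers promoters with or without a peak. The comparison therefore cannot show an excess of TREs. None of the 8 elements printed before the promoters held an exact TRE or CRE, while the Plaur locus at -13.1 kb, in 24 lists, held 2 exact TREs. The Mmp9 element held 2 PU.1 sites and 2 PPAR core sites, the Plau and Plaur -2.5 kb elements a PPAR core site each, and the Timp1 element an NF-kB site. Exact matches leave out near-consensus sites, so the absence of the letters says nothing of the factor.

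Peaks at the 8 genes, which were chosen with earlier results of these data known, were more numerous than at most genes. Over all lists, the median protein-coding gene had 16 peaks in the same kind of window, and the median of the 9430 genes with a window as long as the members' was 14. Plaur held 211 peaks, a number reached by 1.66% of all genes, Plau 154 (3.72%), Mmp12 141 (4.47%) and Mmp14 120 (6.4%). Mmp9 held 73 (14.9%), Spp1 67 (16.8%), Mmp13 46 (25.8%) and Timp1 30 (36.8%). The order depends on the window. With each peak given to the gene with the nearest start site, Spp1 had 158 peaks, Plaur 124, Mmp13 70 and Mmp14 53. The windows held other protein-coding genes too. The Plaur window overlapped Irgc1 and Cadm4, the Mmp14 window Slc7a7, Mrpl52 and Lrp10, the Timp1 window Syn1 and Araf, and those of Mmp9, Mmp12 and Spp1 overlapped Slc12a5, Mmp1b and Pkd2. No other protein-coding gene reached into the windows of Plau and Mmp13. KLA lists gave 537 of the 842 peaks from 13 lists, and Veh lists 305 from 17. Of the 110 loci, 60 had peaks in both kinds of list, 35 in KLA lists alone and 15 in Veh lists alone. For 25 loci the peak was in a single list. The same splits over all peaks and all loci are not given here, so these counts have no background beside them.

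**Figure D1:**
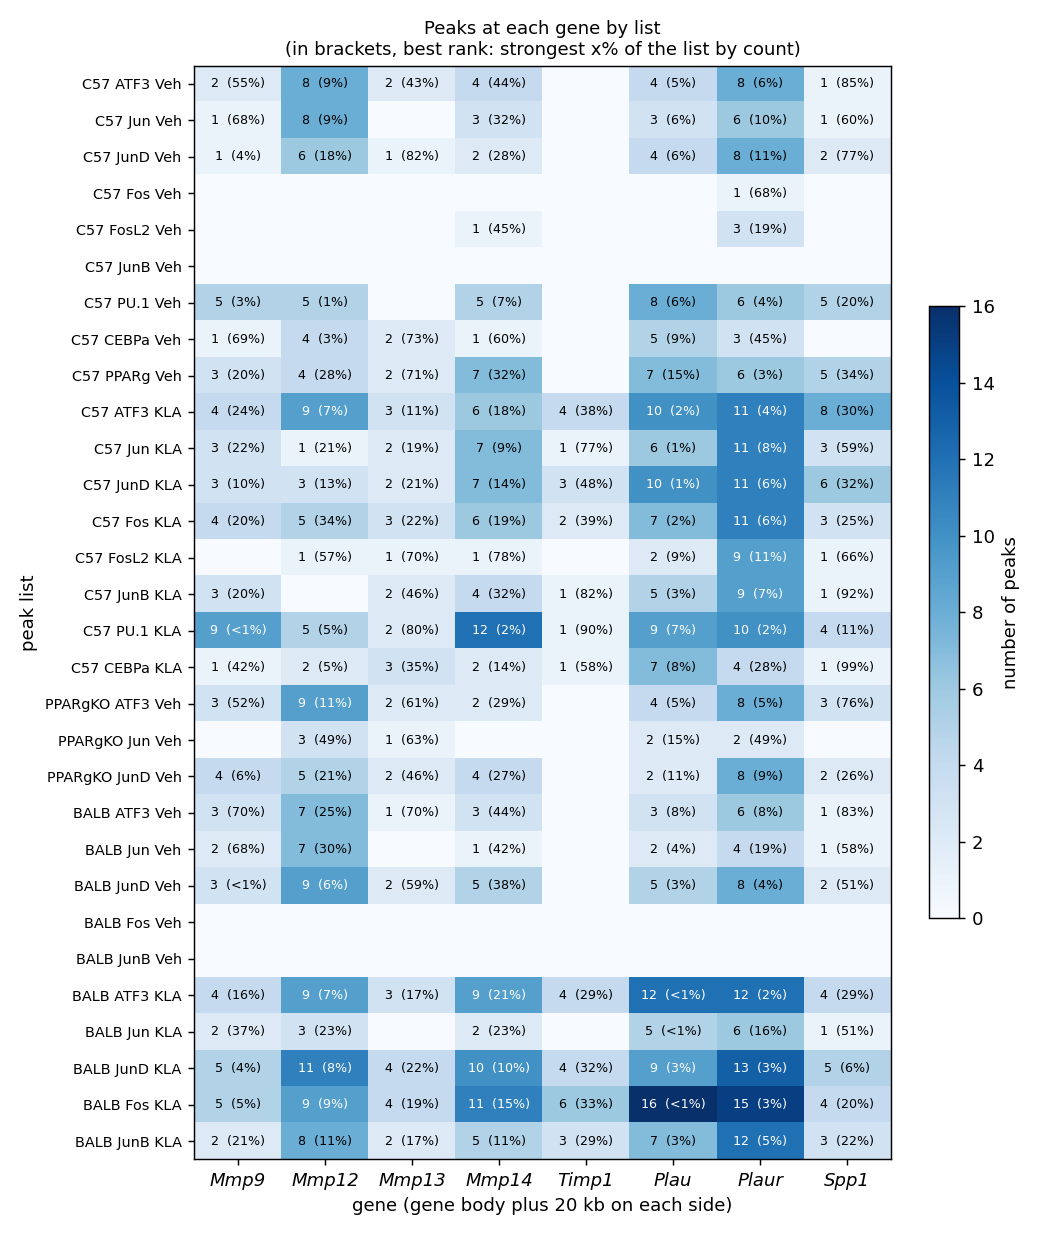
Number of peaks at each of the 8 genes (columns, gene body plus 20 kb on each side) in each of the 30 peak lists (rows); colour and first number give the number of peaks, and brackets the best percent rank by count in that list. The Timp1 column is empty in all Veh lists, and the BALB Fos KLA list holds 16 peaks at Plau and 15 at Plaur.

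All 8 genes had a peak in the C57 KLA lists of ATF3, Jun, JunD, Fos, PU.1 and CEBPα. The share of all protein-coding genes with a peak in the same window was 55.0% for ATF3, 38.0% for Jun, 52.0% for JunD, 44.7% for Fos, 63.5% for PU.1 and 37.6% for CEBPα. JunB in KLA had peaks at 7 of the 8 (30.1% of all genes) and FosL2 at 6 (27.9%). In Veh, ATF3 and JunD had peaks at 7 (47.5% and 45.9% of all genes), and Jun, PU.1 and CEBPα at 6 (39.4%, 65.9% and 37.3%). FosL2 in Veh had peaks at 2 of the 8 (21.3%), Fos at 1 (13.5%) and JunB at none (2.35%). PPARγ had peaks at 7 of the 8, beside 62.2% of all genes. The BALB KLA lists of ATF3, JunD, Fos and JunB had peaks at all 8, beside 58.9%, 57.8%, 58.3% and 39.9% of all genes, and that of Jun at 6 (32.6%). The BALB Veh lists of ATF3 and JunD had peaks at 7 (45.0% and 54.3%), that of Jun at 6 (30.4%) and that of JunB at none (0.0501%). The PPARgKO lists of ATF3 and JunD had peaks at 7 (55.8% and 49.5%) and that of Jun at 4 (16.5%). With 8 genes and lists that reach up to 65.9% of all genes, a count of 6 to 8 says little on its own, and the positions and ranks below carry the description.

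Plau, the urokinase gene (ENSMUSG00000021822.3, chr14:20836660-20843385, plus strand), had 21 loci, and its -2.4 kb locus was the most widely bound, with a peak in 25 of the 30 lists. The locus lies upstream of the gene, between genes. It was in all 11 AP-1 lists of KLA and in 9 of the 14 AP-1 lists of Veh, those of ATF3, Jun and JunD in C57, BALB and PPARgKO. C57 ATF3 had a count of 167 in Veh (percent rank 5.23%) and 274 in KLA (2.43%), Jun 60 (5.55%) and 92 (1.22%), and JunD 116 (6.46%) and 866 (1.09%). BALB ATF3 had 92 (8.07%) and 229 (0.877%), Jun 75 (3.97%) and 109 (0.848%), and JunD 145 (3.22%) and 169 (2.81%). Every one of these 6 pairs had a percent rank nearer the top in KLA, and the rank intervals of Veh and KLA were apart for C57 JunD and BALB ATF3. The KLA lists were longer, and for BALB JunD the rank itself was 923 of 28652 peaks in Veh and 951 of 33850 in KLA. After KLA, Fos had 172 in C57 (2.1%) and 343 in BALB (0.561%), JunB 100 (2.51%) and 143 (2.59%), and FosL2, listed in C57 alone, 86 (11.4%). The BALB lists of Fos, Jun and ATF3 placed it among their strongest 1%. PU.1 had a percent rank of 26.7% in Veh and 11.9% in KLA, CEBPα 75.6% and 47.2%, and PPARγ 14.6%. Every C57 and BALB AP-1 list that held the locus placed it at 11.4% or nearer the top, ahead of its place in the lists of PU.1, CEBPα and PPARγ.

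The Plau -6.7 kb locus, also between genes, was in 22 lists, among them all 11 AP-1 lists of KLA. Its median percent rank was 24.9% over the 8 AP-1 lists of Veh that held it and 6.53% over those of KLA. C57 JunD moved from 78 counts (20.5%) to 762 (2.93%), and the intervals were apart in C57 for ATF3, Jun and JunD and in BALB for ATF3. A further locus in a UTR exon near the end of the gene, at 6.1 kb, was in 19 lists, 10 of them AP-1 lists of KLA. CEBPα ranked it at 11.1% in Veh and 10.2% in KLA, its strongest positions at Plau beside the 9.3 kb locus (170 counts, 7.55% in KLA). Around the Plau start site, peaks at -0.3 kb and 0.1 kb were in 3 and 6 KLA lists and in no Veh list, and 1 at 0.4 kb, in a UTR exon, was in a Veh list alone, that of C57 PU.1 (166 counts, 78.0%). The -0.3 kb locus ranked between 30.8% and 42.5% in the 3 lists. The outer loci at -17.6, -10.4 and 14.1 kb held AP-1 peaks in KLA lists alone (7, 4 and 3 lists). BALB Fos in KLA held 16 of the 21 loci, the most of any list.

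Plaur, the urokinase receptor gene (ENSMUSG00000046223.10, chr7:24462484-24475968, plus strand), had 19 loci, of which 6 were in 19 or more lists. The -19.9 kb locus, inside the neighbouring gene Irgc1, was in 25 lists. It straddles the edge of the window, and 8 of its peaks had midpoints just outside, so they are not among the 211. PU.1 ranked it at 4.39% in Veh (818 counts) and 1.555% in KLA (268 counts), with intervals apart. Among AP-1 lists its percent rank was 4.07% to 79.4% in Veh (median 10.6%, 9 lists) and 2.87% to 21% in KLA (median 5.41%, 11 lists). CEBPα, with both midpoints just outside, ranked it at 7.33% and 4.76%, and PPARγ at 5.25%.

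The -2.5 kb locus, between genes, was also in 25 lists, and that at -13.1 kb, inside Irgc1, in 24. BALB ATF3 at -2.5 kb went from 69 counts (16.7%) to 201 (1.79%), with intervals apart, whereas C57 ATF3 was at 159 (6.17%) and 245 (3.87%) with intervals that overlapped. The -13.1 kb locus was the one place at the 8 genes with a Fos peak in Veh. C57 Fos there had 18 counts in Veh (68.3%) and 132 in KLA (6.56%), with intervals apart. FosL2 had 33 (19.4%) and 82 (13.5%) there, and 20 (73.45%) and 59 (33.6%) at -2.5 kb.

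A cluster at the Plaur start site also differed between Veh and KLA. At -0.9 kb the median percent rank was 62.6% over the 7 AP-1 lists of Veh and 13.8% over all 11 of KLA, and at 0.6 kb, in an intron, 48.3% over 5 lists and 8.25% over 11. C57 JunD at 0.6 kb went from 31 counts (92%) to 616 (8.31%), ATF3 from 57 (48.3%) to 162 (13.9%) and Jun from 22 (59.8%) to 62 (8.25%), all with intervals apart. Between them lies the locus over the start site itself, in a UTR exon, with AP-1 peaks in 6 Veh and 8 KLA lists. PPARγ had 188 counts there, at 2.86% the highest rank of PPARγ at the 8 genes, while ATF3 in C57 was at 64.3% in Veh and 73.2% in KLA. JunD ranked the start site at 69.4% and 63% in C57 and at 13.9% and 11.5% in BALB. The promoter printed above is its upstream part, with a TRE and a CEBP site close together. In the gene, the 8.0 kb intron locus was in 11 KLA lists and in no Veh list, with BALB Fos at 157 counts (13.8%).

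**Figure D2:**
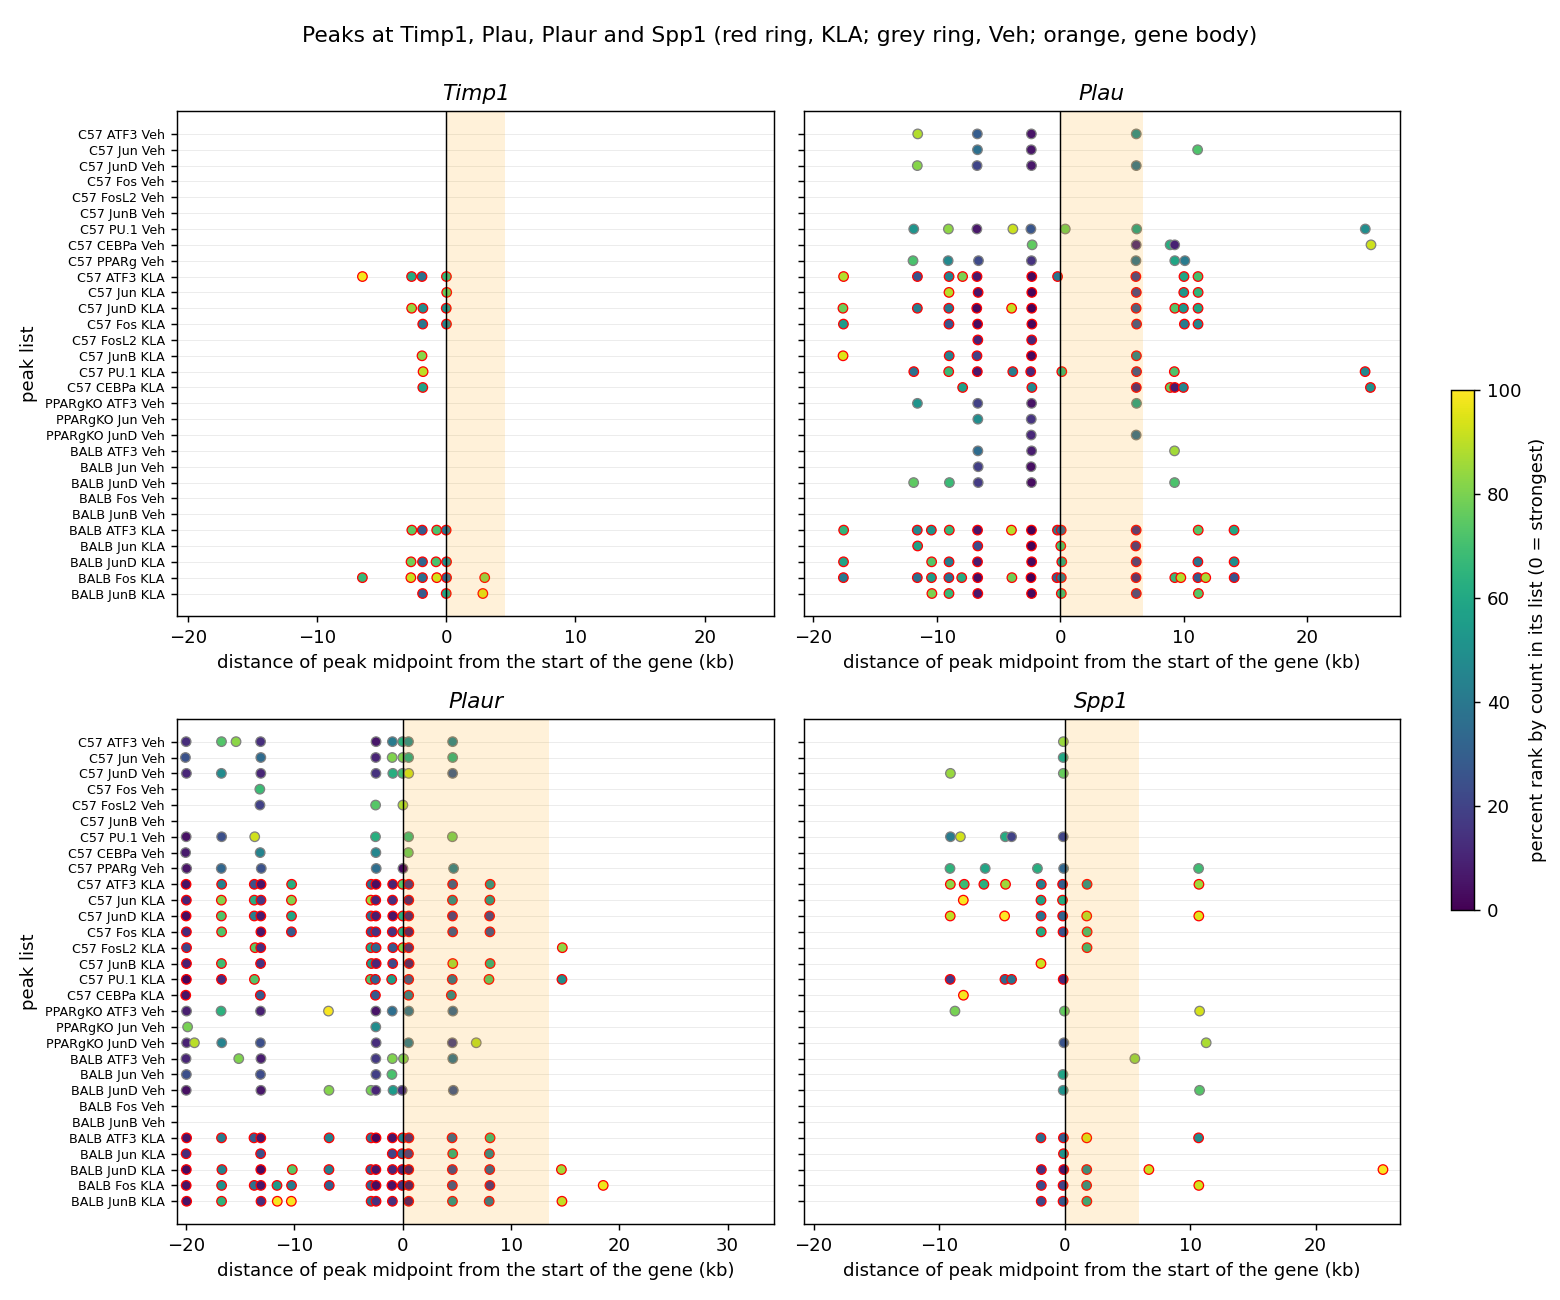
Peaks at Timp1, Plau, Plaur and Spp1 by list (rows) and by distance of the peak midpoint from the start of the gene in kb (x axis); each point is a peak, red rings mark KLA and grey rings Veh, the fill gives the percent rank by count in its list (dark is strong) and the orange band is the gene body. Timp1 has points in KLA rows alone, and the columns of points at Plau (-2.4 and -6.7 kb) and Plaur (-19.9, -13.1 and -2.5 kb) run through most lists.

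Mmp12, macrophage metalloelastase (ENSMUSG00000049723.14, chr9:7344381-7369499, plus strand), had 66 peaks in the 13 KLA lists and 54 in the Veh lists of the same factors and strains. Its 16 loci included a row upstream, between genes, at -13.9, -12.3, -7.5, -7.0 and -3.6 kb, and intron loci at 1.3 and 3.0 kb. The -7.0 kb locus was in 22 lists. C57 ATF3 had 103 counts there in Veh (18.6%) and 207 in KLA (7.16%), and BALB ATF3 55 (26.15%) and 140 (6.62%), both with intervals apart. C57 Jun had 51 (9.49%) and 46 (20.7%), and C57 JunD 82 (18.1%) and 539 (13.2%), with intervals that overlapped. PU.1 had 778 counts in Veh (5.36%) and 187 in KLA (6.78%).

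C57 Jun and JunD had fewer peaks at Mmp12 in KLA than in Veh. C57 Jun had 8 loci in Veh, and 1 of them, at -7.0 kb, was in the KLA list, with none gained. C57 JunD had 6 in Veh, kept 3 (-7.0, 1.3 and 3.0 kb) and gained none. At -12.3 kb, for example, JunD had 71 counts in Veh (25.3%) and no peak in KLA, although the KLA list was longer, with 31640 peaks against 19653. Its KLA list had the highest counts of the AP-1 lists, with 120 as its lowest. BALB Jun behaved in a like way, with 2 loci kept, 5 lost and 1 gained. BALB JunD kept 8 of its 9 loci and gained 3, but with its 2 lists at equal length the loci gained minus those lost came to -2. ATF3 kept 7 and lost 1 in C57, and kept 6 and lost 1 in BALB. C57 JunB had no peak at Mmp12 in KLA and C57 FosL2 had 1, at -3.6 kb (44 counts, 56.8%), while C57 Fos had 5.

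The other factors at Mmp12 differed in place. CEBPα had its highest Veh rank at the 8 genes at -12.3 kb, with 220 counts in Veh (3.46%) and 186 in KLA (5.35%), and ranked -7.5 kb at 6.81% in Veh with no peak there in KLA. PU.1 was strongest at 1.3 kb, in an intron, with 1023 counts in Veh (1.06%) and 209 in KLA (4.68%). That locus and -7.5 kb (24.5% and 40%) were 2 of the 3 member loci at which the PU.1 rank interval lay lower in KLA. The BALB JunD interval at 1.3 kb was lower too, with 67 counts in Veh (25.5%) and 42 in KLA (58.1%). At the first start site, PU.1 ranked 14.7% in Veh and 14.3% in KLA, and the best AP-1 rank was 46.3%, from BALB Fos. At 3.0 kb, where the second start site lies, C57 ATF3 had 143 counts in Veh (8.59%) and 145 in KLA (17.7%), PPARγ ranked 28.2%, and the printed promoter holds a TRE.

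Mmp9, gelatinase B (ENSMUSG00000017737.2, chr2:164940780-164955850, plus strand), had 9 loci, 3 of them intron loci in 10 or more lists. At 2.2 kb, in 22 lists, PU.1 had 860 counts in Veh (3.41%) and 303 in KLA (0.691%), with intervals apart, its best rank at the 8 genes. JunD ranked 4.1% in C57 Veh, 0.935% in BALB Veh and 6.39% in PPARgKO Veh, while ATF3 and Jun ranked between 51.9% and 71.1% in the Veh lists that held the locus, taking the better of 2 BALB ATF3 peaks. In KLA, JunD ranked 10.4% in C57 and 3.88% in BALB. JunD thus stood far higher in its lists here than ATF3 and Jun did in Veh. At 7.0 kb the picture was one of KLA. The locus was in 10 KLA lists, 9 of them AP-1, and in no Veh list. It had 160 counts in BALB JunD (3.55%), 237 in BALB Fos (4.53%), 560 in C57 JunD (11.6%), 86 in C57 Fos (20.0%) and 123 in C57 ATF3 (24.0%), and a PU.1 peak at 19.1%. The 0.5 kb locus near the start site had AP-1 peaks in 6 Veh lists (median 73.1%) and 10 KLA lists (median 34.1%).

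Mmp13, an interstitial collagenase (ENSMUSG00000050578.10, chr9:7272514-7283331, plus strand), had 6 loci, and the -10.8 kb locus separated the treatments. It had AP-1 peaks in 10 of 11 KLA lists and in 2 Veh lists. C57 ATF3 had 36 counts in Veh (80.6%) and 180 in KLA (10.7%), and BALB JunD 18 (93.4%) and 84 (22.3%), both with intervals apart. C57 Jun (18.5%), JunD (21.2%), Fos (22.4%) and JunB (46.2%) had peaks there in KLA and none in Veh. The -2.3 kb locus was in 19 lists at low ranks, 42.9% to 81.8% in 7 AP-1 lists of Veh and 41.9% to 97.9% in 9 of KLA. At the start site, where the printed promoter has the TRE of this collagenase gene, peaks were in 2 Veh lists, both of PPARgKO (ATF3 64% and JunD 49%), and in 4 KLA lists (84.1% to 88.4%).

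Mmp14 (ENSMUSG00000000957.11, chr14:54431612-54445364, plus strand) encodes a metalloproteinase anchored in the membrane. It had 17 loci, led by -5.2 kb (18 lists), 11.0 kb in an intron (17) and -4.7 kb (15). At 11.0 kb, PU.1 ranked 8.93% in Veh and 1.9% in KLA with intervals apart, and CEBPα 59.8% and 14%, also apart. AP-1 peaks were there in 2 Veh lists (48.7% and 74.8%) and in 10 of the 11 of KLA (9.34% to 32.2%). C57 ATF3 moved from 39 counts (74.8%) to 145 (17.7%), and BALB JunD from 43 (48.7%) to 121 (9.52%), both with intervals apart. At -5.2 kb the 8 AP-1 lists of Veh ranked 27.25% to 58.4% and the 8 of KLA 14.8% to 44.9%. Loci at -3.7, 3.7 and 14.6 kb were in 9, 8 and 10 KLA lists and in no Veh list. The -3.7 kb locus lies inside Mrpl52 and the 14.6 kb locus just beyond the end of Mmp14.

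**Figure D3:**
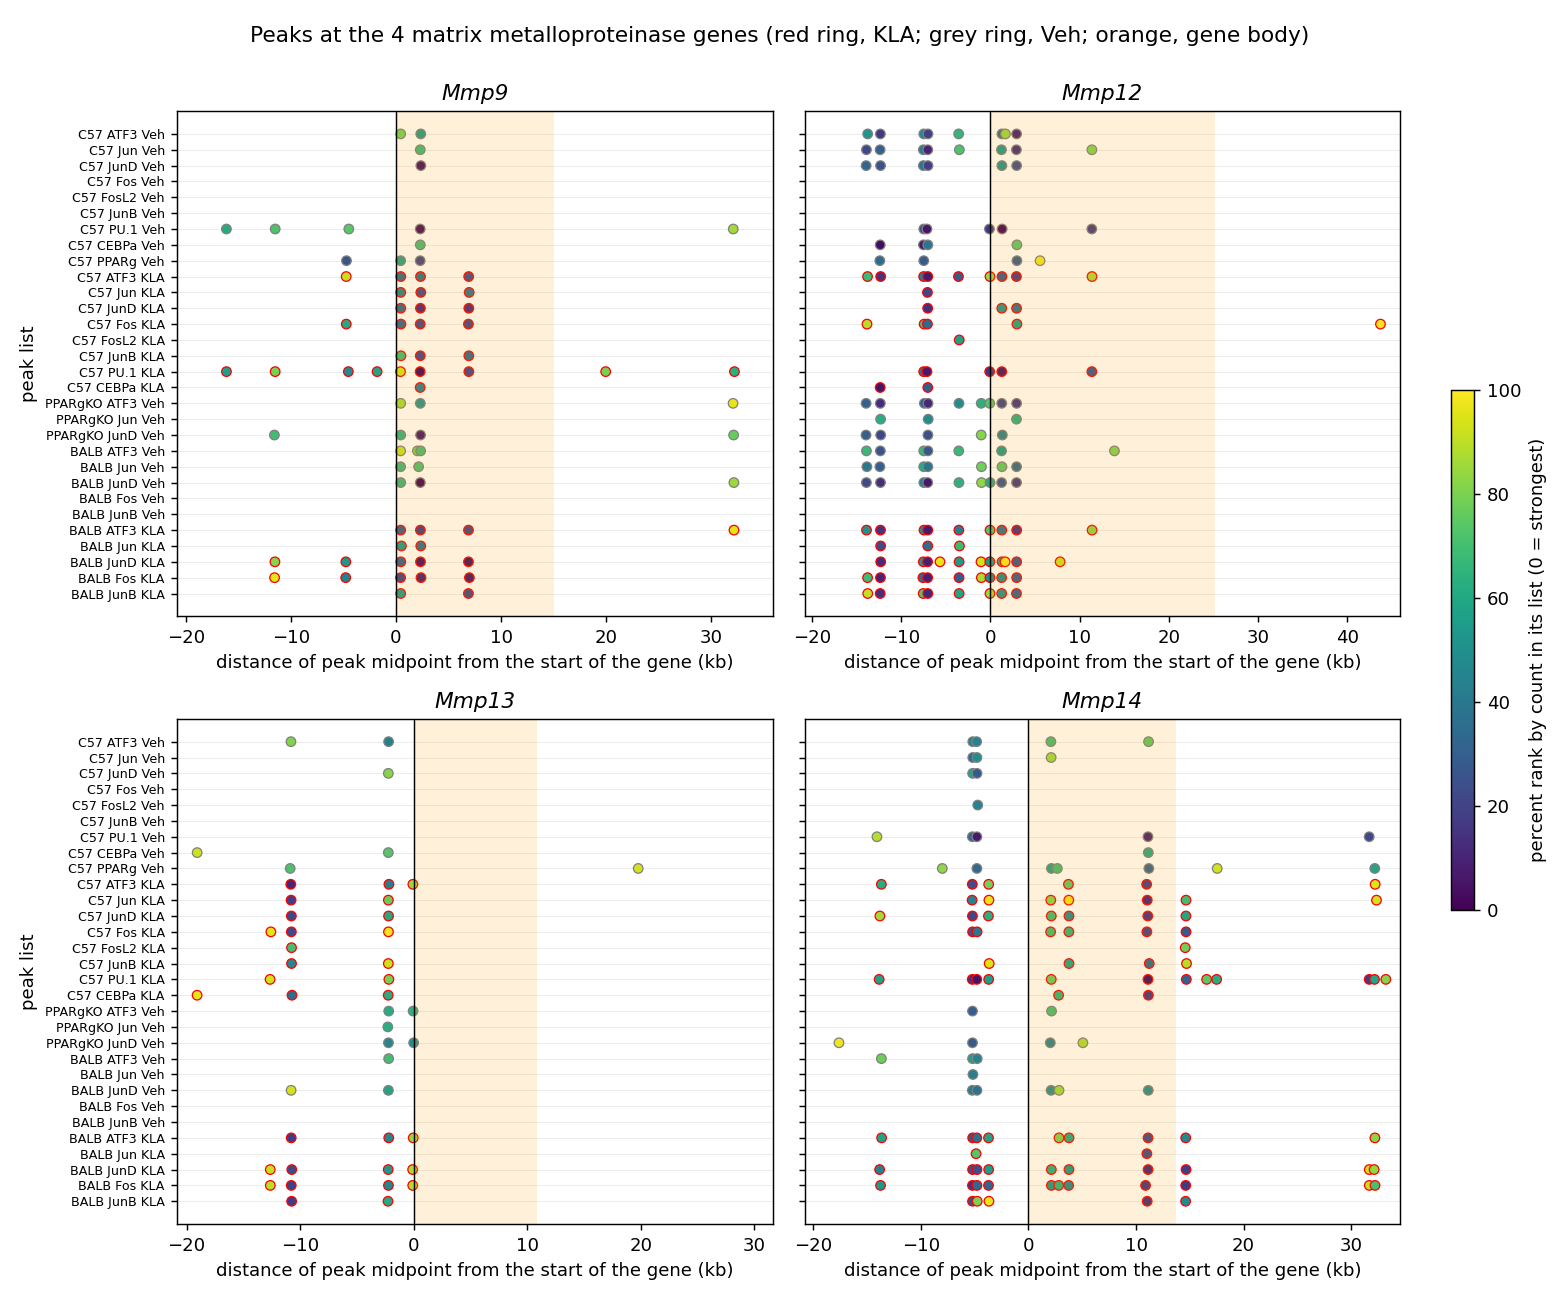
Peaks at Mmp9, Mmp12, Mmp13 and Mmp14 by list (rows) and by distance of the peak midpoint from the start of the gene in kb (x axis), drawn as in the map of Timp1, Plau, Plaur and Spp1. The Mmp12 rows of C57 Jun, JunD, FosL2 and JunB in KLA hold 0 to 3 points, whereas the Mmp9 7.0 kb locus shows red rings alone.

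Timp1, the metalloproteinase inhibitor gene (ENSMUSG00000001131.11, chrX:20870166-20874735, plus strand), had no peak in any of the 17 Veh lists. All of its 30 peaks were in KLA lists, 11 of 13, and fell on 6 loci. The -1.8 kb locus, which like all its upstream loci lies inside Syn1, was in 10 lists. ATF3 had 92 counts in C57 (37.7%) and 67 in BALB (28.6%), JunD 283 (48.5%) and 67 (32.4%), Fos 59 (39.5%) and 86 (36%), and JunB 22 (82%) and 60 (29.2%). CEBPα (57.6%) and PU.1 (89.9%) also had a peak there in KLA. The locus over the start site, in the first exon, was in 8 KLA lists, all AP-1, with BALB Fos highest at 91 counts (33.5%) and C57 Jun lowest at 22 (76.8%). The ranks were in the middle and lower parts of the lists. None of the 30 peaks was among the strongest 10% of its list. Widening the window to 50 kb on each side took in 25 Veh peaks. The share of all genes with peaks in KLA lists alone is not given here. Many genes lack a peak in a Veh list, since C57 ATF3 in Veh had a peak at 47.5% of protein-coding genes and C57 Jun at 39.4%. Some of the 17 Veh lists were empty or nearly so, as with Fos and JunB of BALB.

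Spp1, the osteopontin gene (ENSMUSG00000029304.14, chr5:104435118-104441050, plus strand), had 16 loci, 7 of them in a single list. The locus over the start site was in 19 lists. C57 ATF3 had 34 counts in Veh (84.7%) and 108 in KLA (29.7%), C57 JunD 37 (76.7%) and 372 (31.7%), and BALB JunD 41 (51.3%) and 137 (6.47%), all with intervals apart. PU.1 there ranked 20.6% and 11.4%, and PPARγ 33.6%. The -1.9 kb locus was in 9 KLA lists, all AP-1, with percent ranks of 14.6% to 91.9%, and in no Veh list. The 1.8 kb intron locus was in 8 KLA lists, also all AP-1. At -4.2 kb PU.1 was the sole factor with a peak, at 19.6% in Veh and 38.6% in KLA, and this was the third of the PU.1 loci with a lower rank interval in KLA.

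The comparison of KLA with Veh asks how TLR4 activation changes binding. A locus of the 2 lists of a factor was called gained if it held a peak in KLA alone and lost if in Veh alone. At the members, C57 ATF3 gained 30 of 59 loci (50.8%, 95% Clopper-Pearson interval 37.5 to 64.1) and lost 4 (6.78%), beside 43.7% gained and 10.6% lost over all loci of these lists. The KLA list was longer, and with both at equal length the members gained 29.3% and lost 14.6%. C57 Jun gained 20 of 43 (46.5%, 31.2 to 62.3) and lost 9 (20.9%), beside 35.3% and 27.3%. C57 JunD gained 26 of 50 (52%, 37.4 to 66.3) and lost 4 (8%), beside 45.4% and 12.1%, and with lists of equal length gained 40% and lost 17.5%. In BALB, ATF3 gained 37 of 62 (59.7%, 46.4 to 71.9) and lost 5 (8.06%), beside 51.8% and 9.1%. BALB Jun gained 10 of 27 (37%, 19.4 to 57.6) and lost 7 (25.9%), beside 34.8% and 32.6%. BALB JunD gained 33 of 67 (49.3%, 36.8 to 61.8) and lost 6 (8.96%), beside 35.9% and 24.2%. Except for the shares of BALB JunD, the values over all loci lay inside the members' intervals at the deposited lengths. The members' shares at equal length have no value over all loci beside them.

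For the monomers that are scarce in Veh lists, nearly all member loci were gained, as in the lists as a whole. C57 Fos gained 40 of 41 (97.6%) and lost none, beside 92.8% and 2.83%, and C57 JunB gained all 25 and lost none, beside 96.6% and 1.6%. C57 FosL2 gained 12 of 16 (75%, 47.6 to 92.7) and lost 1 (6.25%), beside 60.0% and 20.3%. PU.1 gained 20 of 54 loci (37%, 24.3 to 51.3) and lost 2 (3.7%, 0.452 to 12.7), beside 19.5% and 21.2% over all its loci, which both lie outside the members' intervals. Of the 20 gained PU.1 loci, 7 were at Mmp14 and 4 each at Mmp9 and Plaur. CEBPα gained 7 of 23 (30.4%, 13.2 to 52.9) and lost 2 (8.7%), beside 31.2% and 21.0%, and both lost loci were at Mmp12. The interval of a share treats loci as independent, which neighbours in a window are not.

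**Figure D4:**
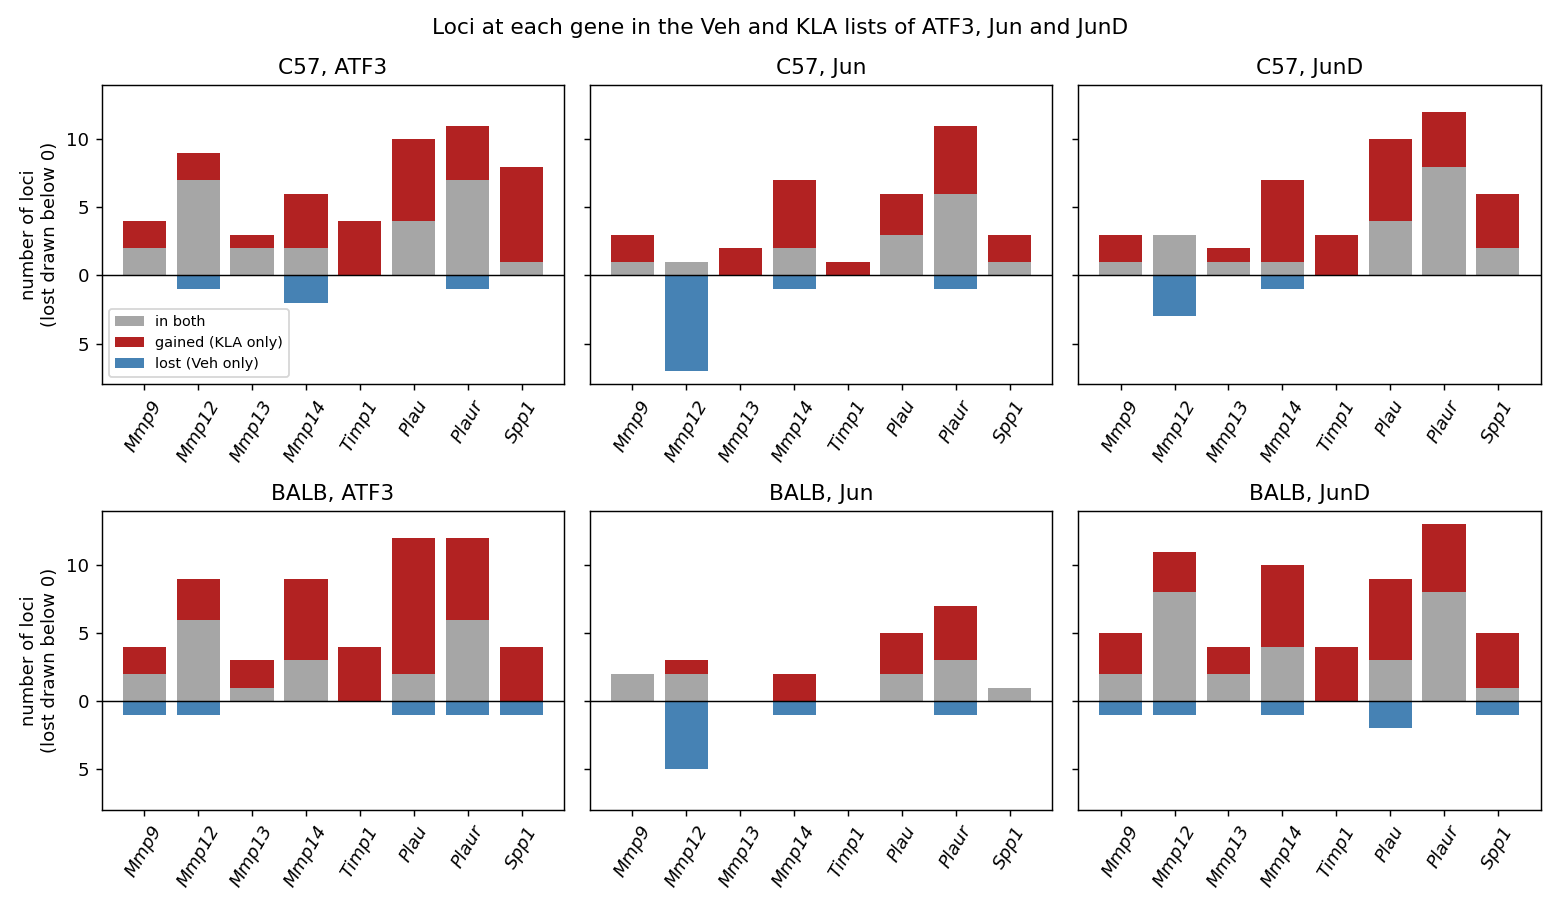
Number of loci at each gene (x axis) in the Veh and KLA lists of ATF3, Jun and JunD in C57 (top) and BALB (bottom); grey bars are loci in both lists, red bars on top of them loci gained in KLA, and blue bars below 0 loci lost. Mmp12 holds 7 of the 9 Jun losses in C57 and 5 of the 7 in BALB, and Timp1 has red bars alone.

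Of the 9 loci that C57 Jun lost, 7 were at Mmp12, as were 5 of the 7 lost by BALB Jun. Without Mmp12, a split chosen after these values were seen, C57 Jun lost 2 of 35 loci (5.71%) and BALB Jun 2 of 19 (10.5%). Over all loci the lost shares were 27.3% and 32.6%. Leaving out the gene with the most losses lowers the members' share by construction.

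At loci in both lists, most rank intervals overlapped between Veh and KLA. Over the 11 comparisons of KLA with Veh, 107 of 167 locus and factor pairs had intervals that overlapped, 56 were higher in KLA and 4 lower. C57 ATF3 had 25 such member loci, of which 11 had a rank interval higher in KLA and none lower, beside 24.5% higher and 8.23% lower over all loci in both lists. C57 JunD had 8 of 20 higher and none lower (21.7% and 10.9% over all), and C57 Jun 3 of 14 and none (4.78% and 4.06%). BALB ATF3 had 7 of 20 higher and none lower (23.2% and 4.4%), BALB JunD 6 of 28 and 1 (13.8% and 11.4%), and BALB Jun 1 of 10 and none (6.64% and 4.52%). PU.1 had 16 of 32 higher and 3 lower, beside 18.3% and 19.8% over all, and CEBPα 3 of 14 and none, beside 12.1% and 10.8%. The median percent rank of PU.1 at these member loci was 37.2% in Veh and 26.1% in KLA, while over all loci it was 39.0% and 39.3%. By gene, 19 of 51 pairs were higher at Plaur, 13 of 30 at Plau, 7 of 18 at Mmp14, 6 of 16 at Mmp9, 6 of 10 at Spp1 and 2 of 8 at Mmp13. At Mmp12 3 of 34 were higher and 3 lower, and at Spp1 1 was lower. The counts by gene and over the 11 comparisons pool factors whose shares over all loci differ, such as 4.78% for C57 Jun and 24.5% for C57 ATF3. No background for the pooled counts is given.

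A rank is a share of its list, and most KLA lists were longer, so the ranks were also taken with the longer list cut by count to the length of the shorter, an alternative chosen after seeing the data. Then 40 of 158 pairs were higher in KLA and 7 lower, 5 of the 7 at Mmp12, where none was higher. C57 ATF3 had 6 of 23 higher and 1 lower, beside 13.1% and 18.1% over all loci in both lists, and C57 JunD 4 of 17 and 2, beside 13.8% and 24.3%. BALB ATF3 had 4 of 19 higher and none lower (9.45% and 14.2% over all), and BALB JunD 5 of 27 and 1 (11.1% and 16.0%). C57 Jun had 3 of 14 and none (4.25% and 4.99%), BALB Jun 1 of 10 and none (6.09% and 4.87%), CEBPα 1 of 13 and none (9.71% and 14.5%), and PU.1 16 of 32 and 3 (19.3% and 19.2%). At Plaur 16 of 47 were higher and at Plau 10 of 30. The counts by gene and the 40 of 158 again pool factors and have no background beside them.

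**Figure D5:**
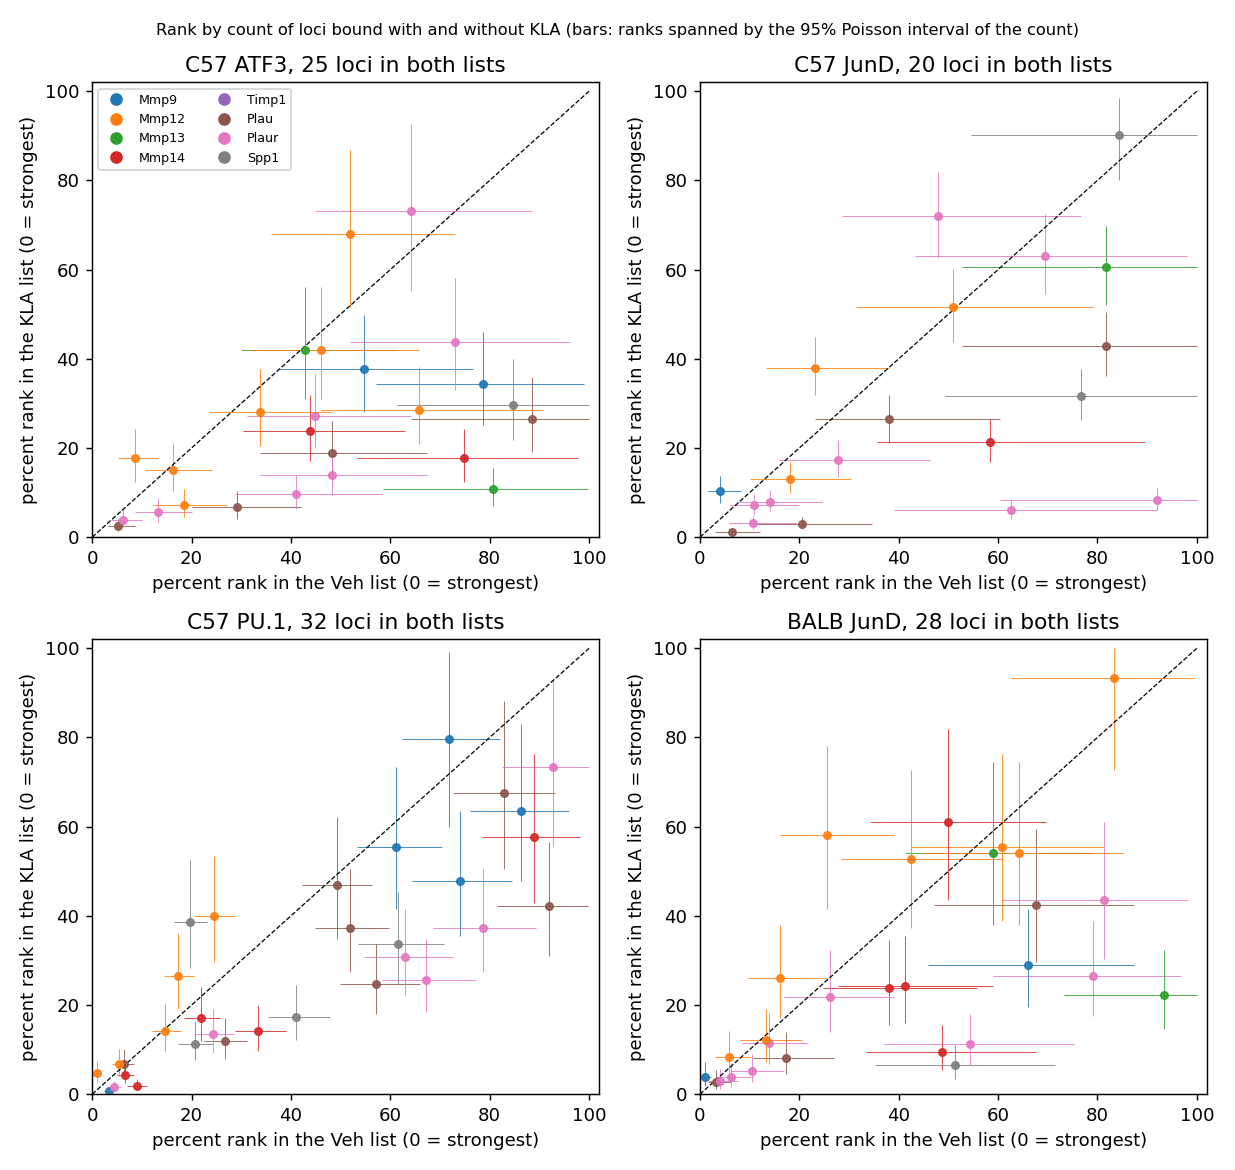
Percent rank by count in the KLA list (y axis) against that in the Veh list (x axis) for member loci with a peak in both, for 4 factor and strain pairs; points are loci coloured by gene, bars span the ranks of the 95% Poisson interval of the count, and points below the dashed line rank higher in KLA. For C57 ATF3 11 of 25 loci have intervals apart, all below the line, while 3 of the 32 C57 PU.1 loci have intervals apart above it.

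The lists of C57 and BALB ask whether the strains are bound at the same loci. In Veh, ATF3 shared 19 of 34 member loci, with 10 in C57 alone (29.4%, beside 30.5% over all loci) and 5 in BALB alone (14.7%, beside 17.5%). Jun shared 15 of 25, with 8 in C57 alone (32%, beside 42.2%) and 2 in BALB alone (8%, beside 18.0%). JunD shared 19 of 39, with 5 in C57 alone (12.8%, beside 14.3%) and 15 in BALB alone (38.5%, beside 41.2%). In KLA, ATF3 shared 47 of 66, with 9 in C57 alone (13.6%, beside 19.0%) and 10 in BALB alone (15.2%, beside 19.2%). Jun shared 14 of 40, with 20 in C57 alone (50%, beside 45.3%) and 6 in BALB alone (15%, beside 15.5%). JunD shared 38 of 69, with 8 in C57 alone (11.6%, beside 19.6%) and 23 in BALB alone (33.3%, beside 24.8%). Fos shared 39 of 72, with 2 in C57 alone (2.78%, beside 6.02%) and 31 in BALB alone (43.1%, beside 43.4%), and JunB 22 of 45, with 3 in C57 alone (6.67%, beside 11.4%) and 20 in BALB alone (44.4%, beside 45.3%). The lists differed in length, since after KLA the BALB Fos list was longer (40459 peaks against 24365) and the C57 Jun list was longer (17480 against 11317).

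Some of these loci are given by gene below, picked after their values were seen. The shares over all loci are those above, and no background by gene is given. After KLA, JunB had 8 loci at Mmp12 in BALB and none in C57, where its list was shorter (13375 peaks against 21667), and the BALB peaks at -7.0 and -12.3 kb ranked 10.7% and 14%. JunD had 11 loci at Mmp12 in BALB, of which 3 were in C57, with lists of 33850 and 31640 peaks. ATF3 had the same 9 Mmp12 loci in both strains after KLA. Jun lacked in BALB 6 of the 7 Mmp14 loci of C57 and both Mmp13 loci, and BALB Jun had no Mmp13 or Timp1 peak. At Plau, Fos had 10 loci in BALB alone and 1 in C57 alone. BALB reads were mapped to a genome of that strain and shifted to mm10, and what part this had in a missing peak was not tested.

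The PPARgKO lists ask whether AP-1 binding at rest depends on PPARγ. Of the C57 loci at the members, ATF3 kept 24 and lost 6 in PPARgKO, with 7 found in PPARgKO alone. The lost share was 16.2% of 37 loci, beside 15.1% over all, and the share in PPARgKO alone 18.9%, beside 30.6%. JunD kept 16 and lost 8 (22.9% of 35, beside 32.1%), with 11 in PPARgKO alone (31.4%, beside 31.0%). Jun kept 7 and lost 16 (66.7% of 24, beside 73.9%), with 1 in PPARgKO alone (4.17%, beside 5.48%). The PPARgKO Jun list held 4290 peaks against 15548, and with both lists at equal length 1 of 9 Jun loci was lost (11.1%). The cut to equal length leaves out the weaker C57 Jun peaks, and no share over all loci at that length is given beside it. The 2 lost shares are therefore not alike. The 8 member loci with a Jun peak in PPARgKO were at Mmp12 (-12.3, -7.0 and 3.0 kb), Plau (-6.7 and -2.4 kb), Plaur (-19.9 and -2.5 kb) and Mmp13 (-2.3 kb), the last without a Jun peak in C57 Veh. At Plau -2.4 kb, Jun had 60 counts in C57 (5.55%) and 27 in PPARgKO (14.9%), ATF3 167 (5.23%) and 101 (5%), and JunD 116 (6.46%) and 83 (11.1%). None of the rank intervals was apart there. Of the loci in both lists, no ATF3 or Jun locus of the members had a rank interval apart, beside 3.88% higher and 0.21% lower over all ATF3 loci and 0.0885% higher and 5.31% lower over all Jun loci. JunD had 1 of 16 higher in PPARgKO, the Spp1 start site (37 counts at 76.7% and 55 at 25.7%), and none lower, beside 3.31% and 0.59%.

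PPARγ itself had 34 loci at the members, 7 each at Plau and Mmp14, 6 at Plaur, 5 at Spp1, 4 at Mmp12, 3 at Mmp9, 2 at Mmp13 and none at Timp1. Besides the Plaur start site its highest ranks were at Plaur -19.9 kb (142 counts, 5.25%) and Plau -2.4 kb (81 counts, 14.6%). C57 Jun peaks that overlapped a PPARγ peak were lost in PPARgKO in 8 of 13 cases, beside 71.4% over all such Jun peaks, and those without in 8 of 9, beside 91.2%. For ATF3 the numbers were 4 of 18 (14.9% over all) with and 2 of 11 (32.4%) without a PPARγ peak, and for JunD 6 of 16 (38.7%) and 2 of 8 (64.0%).

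Over the 110 member loci, an exact TRE stood in the central 200 bp of 25 (22.7%, 95% Clopper-Pearson interval 15.3 to 31.7), beside 18% of 92912 loci on the named chromosomes. No member locus held an exact CRE (upper limit of the interval 3.3%), beside 0.987%. PU.1 sites were in 26.4% (22.7% over all), PPAR core sites in 19.1% (14.6%), CEBP sites in 15.5% (14.2%), NF-kB sites in 8.18% (5.93%) and Runx sites in 7.27% (6.3%). Each share over all loci lay inside the members' interval.

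Among 50 other genes of matrix turnover, the median number of peaks over all lists was 40, beside 16 for all genes. The list, made for function, holds other metalloproteinases, TIMPs, ADAM and cathepsin proteases, plasminogen system genes and matrix receptors. In KLA, C57 ATF3 had peaks at 34 of the 50 (68%, beside 55.0% of all protein-coding genes) and JunD at 30 (60%, beside 52.0%). Fos had peaks at 32 (64%, beside 44.7%) and JunB at 25 (50%, beside 30.1%). In C57 Veh, ATF3 had peaks at 30 (60%, beside 47.5%) and JunD at 27 (54%, beside 45.9%). There Fos had peaks at 9 (18%, beside 13.5%) and JunB at 3 (6%, beside 2.35%). The receptor genes Cd44 and Lrp1 had 363 peaks each, and Ctsb, Lgals3 and Itgav 255, 241 and 205. Plat, the other plasminogen activator gene, had 34 peaks in KLA lists and 11 in Veh lists. In the cluster that also holds Mmp12 and Mmp13, Mmp27 had 39 in KLA and 57 in Veh lists, Mmp8 39 and 52, and Mmp10 1 peak in all. These sums run over 13 KLA and 17 Veh lists, and the PPARgKO and PPARγ lists have no KLA partner. Summed in this way, Mmp12 had 66 and 75, against 66 and 54 over lists of the same factors and strains. Mmp3, Mmp7, Mmp16, Mmp17, Mmp20, Mmp21 and Adamts5 had none.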

How the data were processed

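The 30 peak lists were made by the authors, who mapped reads with Bowtie2 (BALB reads to a BALB/cJ genome, then shifted to mm10), called peaks against input with HOMER and kept those with an IDR under 0.05. Per the file headers, each deposited list gives a count per peak, taken over the replicates together. How the replicate counts were combined and the versions of Bowtie2 and HOMER are not given in the sources used here. The deposited IDR score served only to set a stricter threshold as an alternative. With gene bounds of GENCODE M21 and Python 3.11.15 (pandas 2.3.3, scipy 1.17.1, pysam 0.24.0), peaks were ranked by count within each list, and rank intervals came from exact 95% Poisson intervals, which cover counting error only. Peaks that shared 1 bp or more were joined as loci. The rule named, for each member, the locus in the most lists and all loci within 1 kb of the start site, with a PPARγ peak or with a peak among the strongest 1% of a list. Other loci were named after their values were seen. The 8 genes and the lists were chosen with earlier results of these data known. The script was tested on simulated data. The 4 input samples have no list. Alternatives were other windows, equal list lengths, the strongest peaks, stricter overlaps and a narrower motif window.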

Additional observations from a re-analysis of the deposited data

Results flagged for a closer look

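At Mmp12, JunD loci gained in KLA minus those lost came to -3 in C57 and 2 in BALB, opposite signs at the deposited list lengths. With lists of equal length BALB came to -2. The difference was not tested, with 1 list per condition, and its part from list length was not tested beyond the values given under processing.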

How the results depend on the processing

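The 842 peaks became 527 with 5 kb on each side, 1264 with 50 kb and 473 among the strongest 50% of each list. With 50 kb on each side Timp1 had 25 Veh peaks, and with peaks given to the nearest start site 1. With lists of equal length, the gained share was 29.3% for C57 ATF3, 75% for C57 Fos and 44.4% for BALB ATF3, the share common to both strains was 53.8% for Jun in KLA and 67.3% for Fos in KLA, and the Jun share lost in PPARgKO was 11.1%. At that length the lost share was 14.6% for C57 ATF3, 17.5% for C57 JunD, 22.2% for C57 FosL2, 13.6% for CEBPα, 13.3% for BALB ATF3 and 12.1% for BALB JunD, all above the shares at the deposited lengths. Among the strongest 50%, C57 Fos gained 100%, C57 PU.1 and BALB ATF3 lost 0%, BALB ATF3 gained 75.7%, and the strains shared 83.3% for Jun and 68.4% for JunD in Veh and 52.6% for Jun in KLA. With 5 kb on each side C57 Fos gained 100%. Without Mmp12, an alternative chosen after seeing the data, C57 Jun lost 5.71%, BALB Jun 10.5% and C57 CEBPα 0%. JunD loci gained minus lost at Mmp12 in BALB turned to -2 with lists of equal length and to -3 among the strongest 50%, and in C57 came to 0 with 5 kb on each side. In the central 100 bp, PU.1 sites were in 15.5% of member loci, CEBP sites in 9.09% and PPAR core sites in 7.27%. The gained, lost and common shares in this section are of member loci, with no share over all loci under the same alternative beside them. A narrower window holds fewer peaks by construction, and the cause of the other changes was not tested. No paired analysis was possible because the labels give no replicate numbers and each condition has 1 list.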
